A study of Homo sapiens with 9 samples.

Results

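Epithelial cells keep an apical and a basolateral side with 3 groups of proteins that work against each other at the cell cortex. The Crumbs complex marks the apical membrane, the Par complex (PAR3, PAR6 and an atypical protein kinase C) sits at the apical junction, and the Scribble complex (Scribble, discs large and lethal giant larvae proteins) holds the basolateral side. Loss of the Crumbs and lethal giant larvae proteins is a known feature of cells that undergo epithelial-mesenchymal transition (EMT). The transcripts described here are those of 10 genes of these complexes, chosen by gene symbol: CRB3 of the Crumbs complex, PARD3, PARD6A, PARD6B, PRKCI and PRKCZ of the Par complex, and LLGL1, LLGL2, SCRIB and DLG1 of the Scribble complex. They are 10 of the 58676 genes in the count table, and were chosen with earlier results of these data known. All 10 passed the filter on low counts, although CRB3 passed it through the control libraries alone.

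RNA-seq was carried out in OVCA433, an established line of human ovarian serous adenocarcinoma, after lentiviral expression of shRNA #1 or shRNA #3 against MPZL3, a predicted cell adhesion molecule with an immunoglobulin-like domain, or of a control vector labelled WT. The cells were selected with puromycin and grown in RPMI medium with serum, and each group held 3 libraries marked A, B and C (9 in all). The sources describe the control as an empty vector in one place and as a scrambled sequence in another, so whether it expresses a hairpin is uncertain. The replicates are called biological, but whether each came from a separate transduction is not given in the sources used here, so p-values measure the spread between these samples.

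Library totals ranged from 16850854 to 23890191 counts. MPZL3 (ENSG00000160588) was at 15.6, 21.9 and 21.0 CPM (counts scaled to a common library size) in control, at 1.87, 1.98 and 1.80 with shRNA #1 and at 1.94, 0.988 and 1.80 with shRNA #3. Every knockdown library lay below every control library (pooled log2 fold change -3.49, SE 0.191, adjusted p = 6.87e-08, edgeR). The summed level of 5 epithelial markers (CDH1, EPCAM, KRT8, KRT18, KRT19) was 8674 to 9916 CPM in control, 2706 to 3316 with shRNA #1 and 2864 to 3252 with shRNA #3. The keratins KRT8 and KRT18 made up most of that sum and kept 44.2% and 37.7% of their control level in knockdown, whereas KRT19 was at 7.07%, EPCAM at 1.79% and CDH1, which encodes E-cadherin, at 0.0473%. The summed level of 3 mesenchymal markers (VIM, CDH2, FN1) was 1542 to 2024 CPM in control, 5922 to 14010 with shRNA #1 and 6145 to 10390 with shRNA #3. Of the Müllerian and serous markers, PAX8 rose from 97.0 CPM on average in control to 204 in knockdown (pooled log2 fold change 1.07, SE 0.116, adjusted p = 2.25e-05, edgeR). WT1 was at 0 in every library, and MUC16 was at 3.18 CPM on average in control and 0 in knockdown. The summed level of 5 leukocyte, endothelial and erythroid markers (PTPRC, CD3E, PECAM1, CDH5, HBB) was 0.526 to 0.775 CPM in control and 2.10 to 5.20 in knockdown, with HBB at 0 throughout. Of these, CDH5 went from 0.0971 CPM on average in control to 2.29 with shRNA #1 and 3.70 with shRNA #3, while PTPRC averaged 0.454 CPM in control and 0.406 in knockdown, and CD3E and PECAM1 averaged below 0.1 CPM in every group. The part of these marker shifts in the results below was not tested. In bulk RNA, fewer cells that express a gene and less of its RNA per cell cannot be told apart.

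The first question was which polarity genes changed on MPZL3 knockdown. When both shRNAs were grouped (6 libraries against 3), 6 of the 10 genes fell (CRB3, PARD6A, PARD6B, PRKCZ, LLGL2 and SCRIB) and 1 rose (LLGL1) at an adjusted p under 0.05 (edgeR quasi-likelihood test, Benjamini-Hochberg adjustment over 15975 genes). PARD3, PRKCI and DLG1 did not pass. Among all tested genes, 17.0% fell and 15.9% rose by the same rule. With a change of at least 2-fold required as well, 3 genes fell (CRB3, LLGL2 and PARD6B) and 0 rose, against 7.40% and 7.26% of all tested genes; in the rising direction, 1 gene (LLGL1) passed an unadjusted p under 0.05 in edgeR and 1 passed in the DESeq2 Wald test, neither with a 2-fold change. The median log2 fold change was -0.44 over the 10 genes and 0.0045 over all tested genes. PARD6A, at -0.998 on the log2 scale, lay just short of the 2-fold line.

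**Figure D1:**
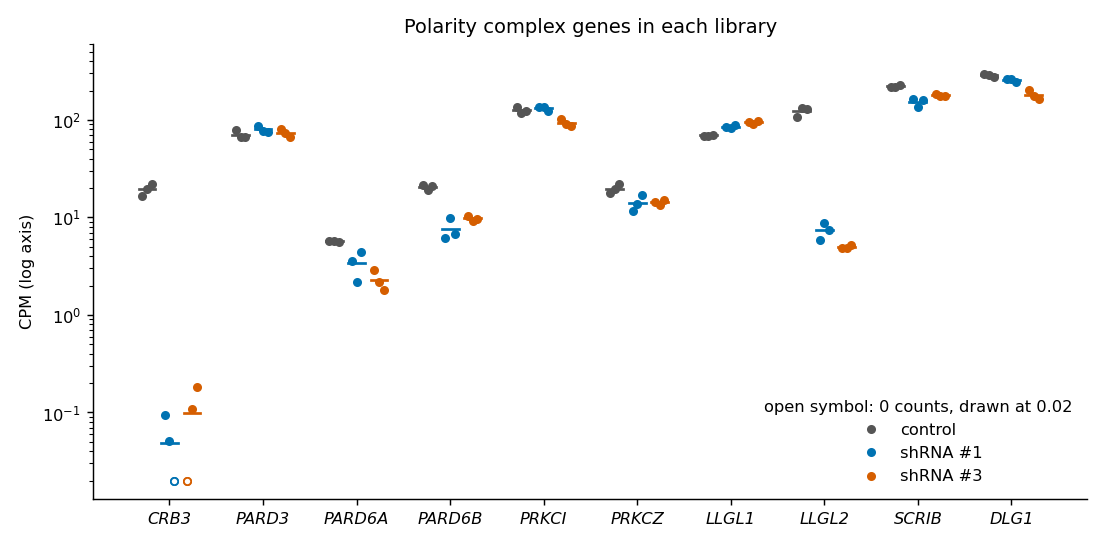
CPM of the 10 polarity genes on a log axis, 1 point for each of the 9 libraries and a bar at each group mean (n = 3), with control in grey, shRNA #1 in blue and shRNA #3 in orange; a library with 0 counts is drawn as an open symbol at 0.02. CRB3 and LLGL2 separate furthest from control, PARD6A and PARD6B are lower in both knockdown groups, and PARD3 overlaps between the groups.

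CRB3 encodes the short Crumbs transmembrane protein of epithelia, which anchors the apical complex through PALS1. It was close to absent after knockdown. The control libraries held 346, 396 and 457 CRB3 counts, the shRNA #1 libraries 2, 1 and 0, and the shRNA #3 libraries 0, 2 and 4. In CPM this was 19.4 ± 2.55 (SD, n = 3) in control, 0.0481 ± 0.0468 with shRNA #1 and 0.0979 ± 0.0926 with shRNA #3. The control libraries stood apart from both knockdown groups, which overlapped each other, and 5 of the 6 knockdown libraries held 2 counts or fewer. Summed over libraries, 9 counts in knockdown against 1199 in control gave a level 262-fold lower, with a 95% exact binomial interval of 138 to 575 that covers counting error only. The same ratio was 417 (142 to 2030) for shRNA #1 and 185 (84.5 to 504) for shRNA #3. These sizes depend on single libraries. The fitted log2 fold change with shRNA #1 was -8.53, and -9.37 without its library A or -7.94 without its library C, and with shRNA #3 it was -7.45, and -8.27 without its library C. Adjusted p was 1.16e-08 in the pooled edgeR fit, and the call held under all 16 alternatives.

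CRB3 (ENSG00000130545) lies on the plus strand of chromosome 19, at 6463777 to 6467221 of GRCh38. It overlaps SLC25A23 and DENND1C on the other strand, and since the libraries were non-directional, reads from opposite strands cannot be told apart. Only 15 of its 1592 exon bases (0.942%) are shared, all with DENND1C, a gene looked up because of the overlap that itself fell (pooled log2 fold change -5.84, SE 0.392, adjusted p = 3.80e-07, edgeR). DENND1C held 1 to 326 counts per library, so the size of its fall rests on few knockdown counts. Like CRB3, it may have passed the filter on low counts through the control libraries alone. SLC25A23 had a pooled log2 fold change of -0.14 (SE 0.123, adjusted p = 0.408, edgeR).

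The promoter of CRB3 is shown because it is dense in one motif, the E-box CAGGTG or its reverse complement CACCTG, which transcriptional repressors of the SNAIL and ZEB families are known to recognise. In the 250 bases before its RefSeq start (chr19:6464021-6464270, plus strand, GRCh38.p14) the motif occurs 5 times, beginning 228, 208, 147, 89 and 60 bases before the start. This window lies inside the longer gene span given above, whose GENCODE start is further upstream. At least 1 copy is present in 17.5% of the 35116 RefSeq promoter windows of that length, and 5 or more in 26 of them (0.074%). The 4 stretches of 30 bases that hold the copies follow, with the motif in capitals.
CRB3 chr19:6464041-6464070: tgCAGGTGtaaggtccccctcaCACCTGcg
CRB3 chr19:6464112-6464141: ggggtcccgttaCAGGTGcgcccacagcgc
CRB3 chr19:6464170-6464199: ctcagcgaggctCAGGTGcacaagccggaa
CRB3 chr19:6464199-6464228: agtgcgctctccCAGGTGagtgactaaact

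Of the other 5 members with a RefSeq promoter window, PRKCI, LLGL1 and PARD6A had 0 copies in the 250 bases before the start. PRKCZ had 4 listed starts with 3, 1, 0 and 0 copies, and DLG1 had 5 starts, of which 1 had 1 copy. PARD3, PARD6B, LLGL2 and SCRIB were not analysed here. A match is a description of the letters and not a binding site, and binding was not measured. ZEB1, ZEB2 and SNAI1, which encode E-box repressors known from EMT, rose on knockdown. ZEB1 was at 3.48 to 4.17 CPM in control and 37.1 to 47.6 in the 6 knockdown libraries (pooled log2 fold change 3.40, SE 0.134, adjusted p = 4.30e-09, edgeR). ZEB2 went from 2.13 to 3.35 CPM in control to 27.4 to 32.7 (log2 fold change 3.48, SE 0.156, adjusted p = 1.15e-08, edgeR), and SNAI1 from 2.69 to 3.78 CPM to 15.5 to 40.0 (log2 fold change 3.11, SE 0.331, adjusted p = 1.89e-05, edgeR). SNAI2 was at 30.1 to 35.3 CPM in control and 26.7 to 35.7 in knockdown (log2 fold change 0.014, SE 0.111, adjusted p = 0.938, edgeR). Whether these rises have a part in the fall of CRB3 was not tested.

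LLGL2 encodes one of the 2 mammalian lethal giant larvae scaffolds, the one known mainly from polarised epithelia, and LLGL1 encodes the more widely expressed one. They moved in opposite directions. LLGL2 (ENSG00000073350, chromosome 17, 75525080 to 75575208, plus strand) was at 106, 133 and 130 CPM in control libraries A, B and C. With shRNA #1 it was at 5.84, 8.80 and 7.42 CPM, and with shRNA #3 at 4.88, 4.83 and 5.20. The control and knockdown libraries lay far apart, and the shRNA #1 and shRNA #3 means stood at 5.98% and 4.04% of the control mean. LLGL2 fell 19.9-fold in the pooled fit (log2 fold change -4.31, SE 0.175, adjusted p = 5.22e-09, edgeR), called under all 16 alternatives.

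LLGL1 (ENSG00000131899, chromosome 17, 18225587 to 18244875, plus strand) was at 68.8, 69.1 and 69.8 CPM in control. With shRNA #1 it was at 85.2, 81.8 and 89.1 CPM, and with shRNA #3 at 96.0, 91.4 and 97.2. All 6 knockdown libraries lay above all control libraries and the 3 groups did not overlap. It was the only member that rose, by 1.30-fold in the pooled fit (log2 fold change 0.38, SE 0.0817, adjusted p = 0.00365, edgeR), and all 16 alternatives kept the pooled call. It shares 40 of its 6638 exon bases with FLII on the other strand, which fell (pooled log2 fold change -0.63, SE 0.0867, adjusted p = 0.000155, edgeR).

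Levels of different genes were compared as CPM per kilobase of the gene length in the count table. For the members this length equalled all annotated exon bases of the gene, not the length of the transcript expressed. Orders and shares per kilobase depend on it. On this scale LLGL2 made up 59.7% ± 2.9 (SD, n = 3) of the sum of both LLGL transcripts in control, 6.75% ± 1.4 with shRNA #1 and 4.21% ± 0.11 with shRNA #3. The sum itself was 23.8 to 27.3 CPM per kb in control, 13.4 to 14.4 with shRNA #1 and 14.4 to 15.3 with shRNA #3. The higher level of LLGL1 was thus smaller than the loss of LLGL2, and the family total in knockdown did not reach the control range.

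**Figure D2:**
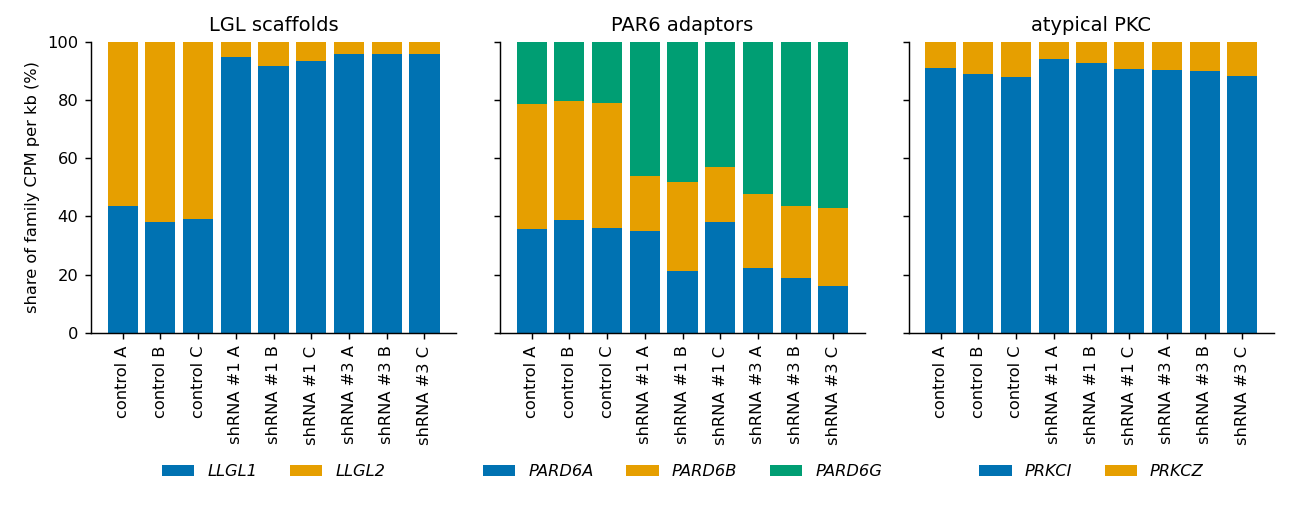
Share (%) of each paralogue in the summed CPM per kb of its family, 1 stacked bar for each of the 9 libraries, for the LGL scaffolds, the PAR6 adaptors and the atypical PKC kinases. The LLGL2 share falls from 56.4 to 61.8% in control to 4.09 to 8.29% in knockdown and the PARD6G share rises from 20.4 to 21.4% to 43.3 to 57.1%, while PRKCI holds 87.9 to 93.9% in every library.

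The PAR6 adaptors link CDC42 to the atypical protein kinase C. Both PAR6 members fell. PARD6B (ENSG00000124171, chromosome 20, 50731544 to 50756795, plus strand) was at 21.7, 19.2 and 21.2 CPM in control, at 6.12, 9.97 and 6.82 with shRNA #1 and at 10.4, 9.22 and 9.71 with shRNA #3. No knockdown library reached the control range (pooled log2 fold change -1.25, 2.38-fold lower, SE 0.166, adjusted p = 0.000111, edgeR), and the pooled call held under all 16 alternatives.

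PARD6A (ENSG00000102981, chromosome 16, 67660946 to 67662778, plus strand) rested on the fewest control counts of the 10 genes, 116 or 117 per control library. It was at 5.67, 5.77 and 5.59 CPM in control, at 3.55, 2.19 and 4.37 with shRNA #1 and at 2.88, 2.20 and 1.80 with shRNA #3. All knockdown libraries were lower than all control libraries, with a wider spread among the shRNA #1 libraries (SD 1.10) than among control (SD 0.0913). Pooled over both shRNAs it fell by 0.998 on the log2 scale (SE 0.255, adjusted p = 0.0101, edgeR). For shRNA #1 alone it was -0.74 (SE 0.245, adjusted p = 0.0287, edgeR), a call lost without control A (adjusted p = 0.0549), control B (0.0740), control C (0.0606) or shRNA #1 library B (0.0965).

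The remaining PAR6 gene, PARD6G, is not a member and was added as the third paralogue after its values were seen. It rose from 9.64, 8.61 and 9.32 CPM in control to 13.3, 14.1 and 14.1 with shRNA #1 and 19.1, 18.8 and 18.3 with shRNA #3 (pooled log2 fold change 0.82, SE 0.153, adjusted p = 0.00140, edgeR). Per kilobase it was the least abundant of the 3 in control, at 21.0% ± 0.51 of their sum, and made up 45.9% ± 2.5 with shRNA #1 and 55.3% ± 2.6 with shRNA #3. In CPM, without the gene length, PARD6A was lower than PARD6G in control (5.68 and 9.19 on average). The sum was 9.97 to 10.7 CPM per kb in control, 6.84 to 7.72 with shRNA #1 and 7.60 to 8.66 with shRNA #3.

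PRKCI and PRKCZ encode the atypical protein kinases C iota and zeta, the catalytic subunits of the Par complex. PRKCI (ENSG00000163558, chromosome 3, 170222365 to 170305981, plus strand) was at 136, 119 and 123 CPM in control and at 136, 135 and 124 with shRNA #1, ranges that overlap, but at 103, 90.6 and 86.6 with shRNA #3, below every other library. PRKCZ (ENSG00000067606, chromosome 1, 2050470 to 2185395, plus strand) was at 17.7, 19.4 and 22.0 CPM in control, at 11.6, 13.7 and 17.1 with shRNA #1 and at 14.5, 13.4 and 15.1 with shRNA #3. All 6 knockdown libraries of PRKCZ were below all control libraries, though the gap between shRNA #1 library C and control library A was small. PRKCZ fell 1.38-fold in the pooled fit (log2 fold change -0.46, SE 0.129, adjusted p = 0.0159, edgeR), and the call was lost without control B (adjusted p = 0.0503) or control C (0.0916). PRKCZ shares 939 of its 7636 exon bases (12.3%) with FAAP20 and 2 antisense transcripts on the other strand, so its level is uncertain. PRKCI had a pooled log2 fold change of -0.16 (SE 0.150, adjusted p = 0.451, edgeR). PRKCI held 89.3% ± 1.6 of the summed CPM per kb of the pair in control, 92.4% ± 1.7 with shRNA #1 and 89.4% ± 1.1 with shRNA #3. The control range overlapped that of each shRNA, while the shRNA #1 range (90.5 to 93.9%) lay just above the shRNA #3 range (88.2 to 90.3%).

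PARD3 encodes the scaffold that recruits PAR6 and the kinase to junctions, and it was the member with the smallest pooled change. PARD3 (ENSG00000148498, chromosome 10, 34109560 to 34815325, minus strand) was at 78.4, 66.5 and 66.4 CPM in control, at 87.4, 76.4 and 75.5 with shRNA #1 and at 81.4, 72.8 and 67.2 with shRNA #3. The groups overlapped, with library A the highest in each. In the pooled fit its log2 fold change was 0.12 (SE 0.0995, adjusted p = 0.376, edgeR), and it did not pass with shRNA #1 (adjusted p = 0.219) or shRNA #3 (0.688). With the replicate letter as a block, PARD3 passed with shRNA #1 (adjusted p = 0.0384, edgeR).

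SCRIB and DLG1 encode large PDZ-domain scaffolds of the basolateral complex, and they were the most abundant members per kilobase. SCRIB (ENSG00000180900, chromosome 8, 143790920 to 143815379, minus strand) was at 217, 218 and 231 CPM in control, at 164, 134 and 159 with shRNA #1 and at 183, 177 and 176 with shRNA #3. The 3 groups did not overlap, and SCRIB fell 1.34-fold in the pooled fit (log2 fold change -0.42, SE 0.100, adjusted p = 0.00682, edgeR). For shRNA #3 alone it was -0.31 (SE 0.0959, adjusted p = 0.0228, edgeR), lost without control B (adjusted p = 0.0502), control C (0.0784), shRNA #3 library B (0.0709), shRNA #3 library C (0.0712) or the low-count filter (0.0521).

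DLG1 (ENSG00000075711, chromosome 3, 197042560 to 197299300, minus strand) was at 296, 289 and 274 CPM in control, at 261, 261 and 243 with shRNA #1 and at 203, 176 and 165 with shRNA #3. Every knockdown library was below every control library, yet its pooled change of -0.39 on the log2 scale (SE 0.148, adjusted p = 0.0620, edgeR) did not pass. All shRNA #3 libraries were also below all shRNA #1 libraries. DLG1 passed in the edgeR 3-group model (adjusted p = 0.00142), with the DESeq2 Wald test (0.0445) and without shRNA #1 library A (0.0344) or B (0.0363).

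In control cells the order of levels per kilobase was SCRIB (35.8 ± 1.23 CPM per kb, SD, n = 3), DLG1 (26.0 ± 0.995), PRKCI (21.6 ± 1.59), LLGL2 (15.6 ± 1.88), CRB3 (12.2 ± 1.60), PARD3 (10.8 ± 1.05), LLGL1 (10.4 ± 0.0809), PARD6B (4.38 ± 0.281), PARD6A (3.82 ± 0.0614) and PRKCZ (2.58 ± 0.284). The neighbours LLGL2 and CRB3, CRB3 and PARD3, and PARD3 and LLGL1 overlapped between libraries. After knockdown SCRIB, DLG1 and PRKCI kept the first 3 places, LLGL1 moved to the fourth, and LLGL2 and CRB3 took the last 2 places with either shRNA. With shRNA #1 the levels of SCRIB, DLG1 and PRKCI overlapped in turn (24.6 ± 2.62, 23.2 ± 0.957 and 22.5 ± 1.08 CPM per kb). With shRNA #3 SCRIB stood alone at 28.9 ± 0.605, while DLG1 (16.5 ± 1.80) and PRKCI (16.0 ± 1.49) overlapped.

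Each shRNA was next compared with control by itself, with all 9 libraries in a 3-group model. These comparisons share their control libraries, so their values are given side by side. With shRNA #1, 6 genes fell and 1 rose, against 19.7% and 18.0% of all tested genes. With shRNA #3, 8 genes fell and 1 rose, against 18.1% and 16.6%. The 2 genes that fell with shRNA #3 and did not pass with shRNA #1 were PRKCI (log2 fold change -0.43, SE 0.0983, adjusted p = 0.00384, against 0.064, SE 0.0978, adjusted p = 0.652, edgeR) and DLG1 (-0.66, SE 0.0988, adjusted p = 0.000155, against -0.17, SE 0.0982, adjusted p = 0.201, edgeR). Log2 fold changes with shRNA #1 and shRNA #3 were -4.07 and -4.63 for LLGL2, -1.44 and -1.08 for PARD6B, and -0.54 and -0.31 for SCRIB. They were -0.47 and -0.45 for PRKCZ and 0.30 and 0.45 for LLGL1. The PRKCZ call was lost in 4 of 16 alternatives with either shRNA, each of them a library left out: control B, control C, and shRNA #1 library A or B for shRNA #1 (edgeR adjusted p 0.0524 to 0.0917), and control B, control C, and shRNA #3 library A or B for shRNA #3 (0.0542 to 0.118). The LLGL1 call with shRNA #1 was lost without the low-count filter (edgeR adjusted p = 0.0544).

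**Figure D3:**
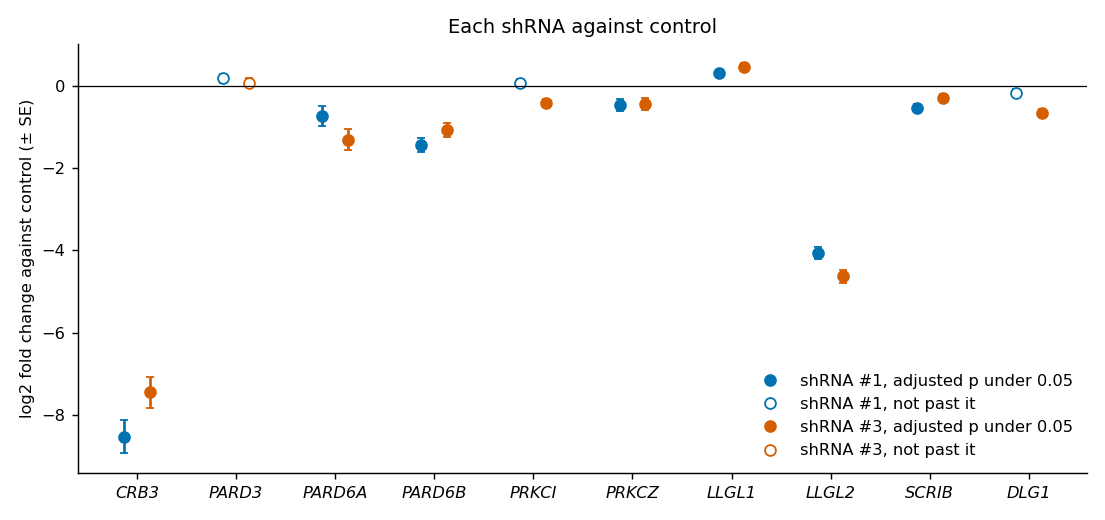
Log2 fold change (± SE) of the 10 polarity genes with shRNA #1 (blue) and shRNA #3 (orange) against the same 3 control libraries, filled where the edgeR adjusted p was under 0.05. CRB3 and LLGL2 lie below -4 with both shRNAs, and PRKCI and DLG1 are filled for shRNA #3 only.

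The difference between the shRNAs was tested directly. In cells with shRNA #3, 3 genes were lower than with shRNA #1 (5.30% of all tested genes were) and 0 were higher (6.33% of all tested genes were). At an unadjusted p under 0.05, 4 genes were lower and 1 was higher in edgeR, and the DESeq2 Wald test called 3 lower and 0 higher. PRKCI was lower by 1.41-fold (log2 difference -0.49, SE 0.0983, adjusted p = 0.00534, edgeR) and DLG1 likewise by 1.41-fold (-0.49, SE 0.0987, adjusted p = 0.00568, edgeR), both in 3 of 3 libraries and under all 16 alternatives. LLGL2 was lower by 1.47-fold (-0.56, SE 0.160, adjusted p = 0.0382, edgeR), a call lost in 8 of 16 alternatives. Those were the fit of the 2 shRNA groups alone (edgeR adjusted p = 0.0903) and the fits without control B (0.0505), control C (0.0502), shRNA #1 library B (0.146) or C (0.0936), or shRNA #3 library A (0.0818), B (0.131) or C (0.0814). For PARD6B the log2 difference was 0.36 (SE 0.171, adjusted p = 0.219, edgeR), and 0.60 (adjusted p = 0.0253) without shRNA #1 library B.

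Stretches of chromosomes differed between these groups, so each member was set beside the 50 nearest tested genes whose mean was 10 CPM or more. SCRIB moved with its neighbourhood. Near the end of chromosome 8 the median log2 fold change of its 50 neighbours was -0.62 with shRNA #1, where SCRIB was at -0.54, and -0.38 with shRNA #3, where SCRIB was at -0.31. In the pooled fit 47 of the 50 neighbours were below 0, and SCRIB lay 0.045 above their median. The shift was not limited to that end. Of 351 chromosome 8 genes, 76.6% were below 0 in the pooled fit, with a median log2 fold change of -0.298. For PARD6B on chromosome 20 the neighbours had a median of -0.29 with shRNA #1 and 0.028 with shRNA #3, and 0 of the 50 fell as far as PARD6B with either. Of 280 chromosome 20 genes, 83.9% were below 0 with shRNA #1 and 50.7% with shRNA #3. The excess of PARD6B over its neighbours was -1.15 with shRNA #1 and -1.11 with shRNA #3. The difference in PARD6B between the shRNAs was itself not called (adjusted p = 0.219, edgeR).

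For CRB3 and LLGL2 the neighbours' pooled medians were 0.090 and -0.043, and 0 of 50 neighbours were as low as either gene. The neighbours of CRB3 leave out DENND1C, which overlaps it and whose mean was below 10 CPM. DENND1C also fell (pooled log2 fold change -5.84), so CRB3 was not the only gene at its locus to fall steeply. PARD6A had 4 lower neighbours and PRKCZ 5 in the pooled fit, beside medians of 0.042 and -0.060. LLGL1 was above 45 of its 50 neighbours, whose median was 0.025. PRKCI and DLG1 lie on the same arm of chromosome 3, the latter near its end. Between the shRNAs the neighbours of PRKCI had a median log2 difference of -0.15, with 40 of 50 below 0 and 5 of 50 below PRKCI itself. Those of DLG1 had a median of -0.053, with 36 of 50 below 0 and 0 of 50 below DLG1 itself. The part of regional shifts in any of these differences was not tested.

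**Figure D4:**
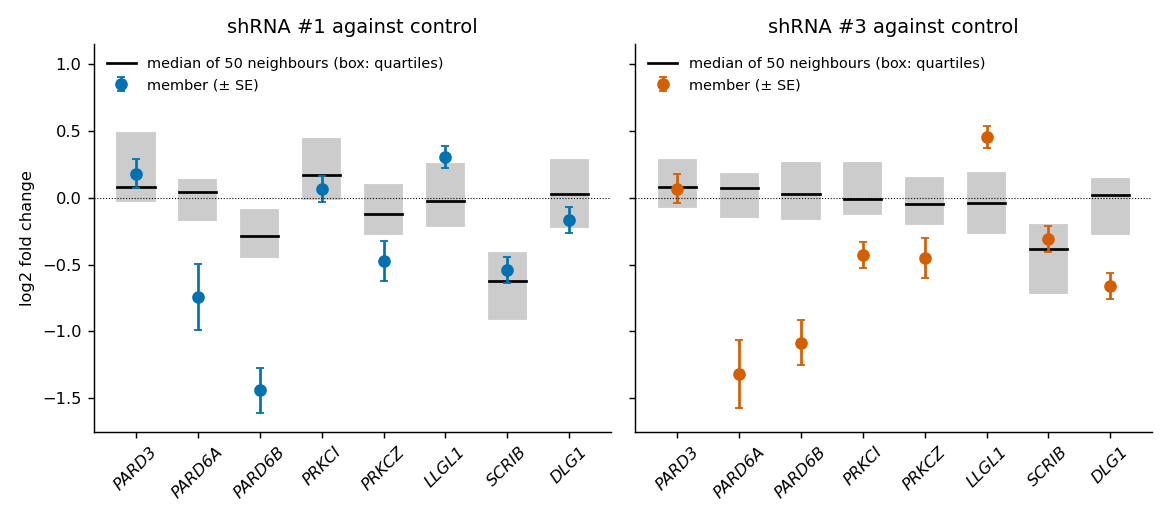
Log2 fold change (± SE) of 8 members with each shRNA against control (coloured points) beside the median (line) and quartiles (box) of the 50 nearest tested genes; CRB3 and LLGL2 lie below the axis and are left out. SCRIB and PARD3 are within their neighbours' quartiles with both shRNAs, PARD6A, PARD6B and PRKCZ are below theirs, and LLGL1 is above. PRKCI and DLG1 are within theirs with shRNA #1 and below with shRNA #3.

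Partners of these complexes were then taken from lists of 38 other polarity genes, of which 35 were tested. In the pooled comparison 9 rose, 10 fell and 16 did not pass, with a median log2 fold change of 0.12, beside 15.9% and 17.0% of all tested genes that rose and fell. The lists below are small and are to be read against those shares. Of the other Crumbs complex genes, 1 of 6 tested fell and 1 rose, a share close to that of all tested genes. PATJ, the multi-PDZ scaffold that binds PALS1, fell from 99.1 to 111 CPM in control to 23.8 to 28.0 with shRNA #1 and 18.1 to 22.1 with shRNA #3 (log2 fold change -2.19, SE 0.126, adjusted p = 1.04e-07, edgeR). LIN7A, a small PDZ protein of the same complex, rose from 1.29 to 2.53 CPM to 6.35 to 9.30 in knockdown (1.998, SE 0.229, adjusted p = 3.52e-05, edgeR). PALS1, the link between Crumbs and PATJ, had a log2 fold change of -0.21 (SE 0.167, adjusted p = 0.384, edgeR).

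Among Par complex paralogues, junctional anchors and GTPases, 4 of 7 tested genes rose and 1 fell (15.9% and 17.0% of all tested genes). JAM2 and F11R encode junctional adhesion molecules, which bind PAR3 at the membrane. F11R was at 112 to 160 CPM in control and 34.4 to 67.4 in knockdown (log2 fold change -1.57, SE 0.196, adjusted p = 7.07e-05, edgeR), whereas JAM2 was at 0.430 to 0.630 CPM in control and 4.41 to 8.65 in knockdown (3.78, SE 0.274, adjusted p = 7.48e-07, edgeR). JAM2, with 13, 9 and 9 counts in control, passed the filter on low counts through the knockdown libraries alone. It could thus be counted here only because it was high in knockdown. Per kilobase F11R still held 83.8 to 91.2% of the sum of F11R, JAM2 and JAM3 after knockdown, compared with 98.3 to 99.2% in control. TIAM1, an exchange factor for RAC1, rose 2.25-fold (log2 fold change 1.17, SE 0.146, adjusted p = 6.78e-05, edgeR).

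Of the other Scribble complex genes, 3 of 6 tested fell and 1 rose (17.0% and 15.9% of all tested genes). LRRC1, a paralogue of Scribble, fell 2.21-fold (log2 fold change -1.14, SE 0.137, adjusted p = 4.95e-05, edgeR), and DLG3, a paralogue of DLG1, fell 1.80-fold (-0.85, SE 0.0938, adjusted p = 2.55e-05, edgeR). LRRC7 was higher, at 2.16 CPM on average in knockdown and 1.05 in control (1.03, SE 0.268, adjusted p = 0.0112, edgeR). Of 9 genes for the Par-1 and Par-4 kinases and their partners, 3 fell and 1 rose, beside the same 17.0% and 15.9%. MARK2, a Par-1 kinase of the lateral membrane, fell 1.70-fold (-0.77, SE 0.0733, adjusted p = 7.69e-06, edgeR), CAB39L fell 1.54-fold (adjusted p = 0.0247) and STRADB rose 1.35-fold (adjusted p = 0.0284). By single shRNA, CAB39L did not pass with shRNA #1 (edgeR adjusted p = 0.0825), and STRADB did not pass with shRNA #3 (0.0960).

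Of 7 polarity adaptors, 2 fell and 2 rose (17.0% and 15.9% of all tested genes). MPP7, which binds DLG1, was at 6.73 to 8.75 CPM in control and 0.712 to 2.18 in knockdown (log2 fold change -2.58, SE 0.284, adjusted p = 2.56e-05, edgeR). AMOT and AMOTL1 encode angiomotins, which bind PATJ and also the Hippo effector YAP, and they went opposite ways. AMOT rose from 0.242 to 0.796 CPM to 4.85 to 8.71 (3.87, SE 0.373, adjusted p = 8.33e-06, edgeR), while AMOTL1 fell from 217 to 240 CPM to 73.0 to 116 (-1.29, SE 0.142, adjusted p = 2.46e-05, edgeR). Like JAM2, AMOT passed the filter on low counts through the knockdown libraries alone, with 5, 16 and 6 counts in control.

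**Figure D5:**
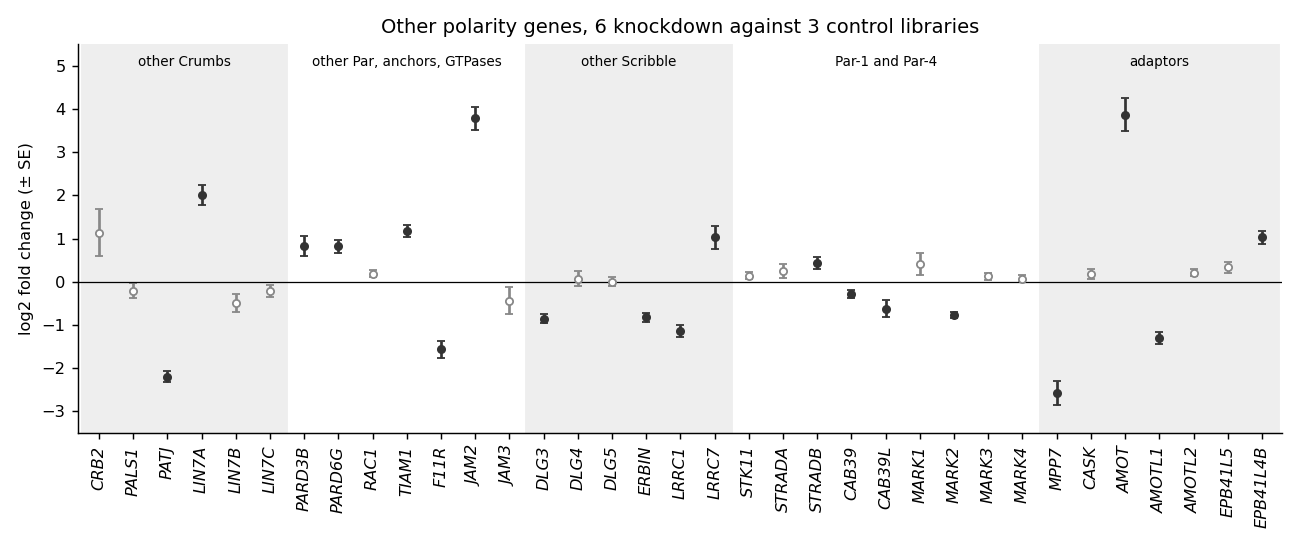
Pooled log2 fold change (± SE) of the 35 tested polarity genes outside the 10 members, 6 knockdown against 3 control libraries, in 5 lists separated by shading; filled symbols have an edgeR adjusted p under 0.05. JAM2 and AMOT, which passed the low-count filter through the knockdown libraries alone, rise most. MPP7 and PATJ fall most, and every list holds genes that moved each way.

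The genes most like CRB3 across libraries were sought among the 9693 tested genes whose mean was 10 CPM or more, by Pearson's r of log2(CPM + 1) over the 9 libraries. They were MUC4, a membrane mucin (r = 0.999, 82.4 CPM in control, 0.0623 with shRNA #1 and 0.0490 with shRNA #3), FGD3, an exchange factor for CDC42 (r = 0.999, 33.4, 0.0156 and 0.0183 CPM), and GRHL2, a transcription factor of epithelial genes (r = 0.999, 112, 0 and 0.249 CPM). For LLGL1 they were PKIG (r = 0.986), UROD (r = 0.986) and NCS1 (r = 0.984), each lowest in control and highest with shRNA #3. The libraries fall into control and knockdown clusters, so r describes mainly that contrast.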

How the data were processed

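Poly(A) RNA of 9 OVCA433 libraries was sequenced without strand information. The deposited values are raw read counts per gene made by the authors, with no normalization; the submitters' processing notes name HISAT2 2.0.5, featureCounts 1.5.0-p3 and build hg38. The 10 members were found by gene symbol, and their coordinates were the same in GENCODE 29 (GRCh38). Promoters came from RefSeq (GRCh38.p14), in which 6 of the 10 members were matched.

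Genes were filtered with filterByExpr (minimum count 10, minimum total count 15), which left 15975, scaled by TMM and tested with edgeR 4.0.16 (glmQLFit, glmQLFTest) in R 4.3.3. Genes were called at a Benjamini-Hochberg adjusted p under 0.05 over all tested genes. SE was the fold change divided by the root of F. CPM used TMM-scaled library sizes. The grouped knockdown arm (6 libraries) followed the study. Alternatives were DESeq2 1.42.0 (Wald test and size factors), library totals, other filters, other thresholds, other models, the replicate letter as a block and each library left out.

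The members, the gene lists and the tests were chosen with earlier results of these data known. Named genes were the 10 members, MPZL3, up to 3 called genes per polarity list with the largest pooled change, SNAI1, SNAI2, ZEB1, ZEB2 and the 3 genes most like the members with the largest fall and rise. PARD6G, PALS1, DENND1C, SLC25A23, FLII, MARK1 and CDC42 were added after their values were seen.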

Additional observations from a re-analysis of the deposited data

Results flagged for a closer look

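3 members differed between the shRNAs in the direct test of shRNA #3 against shRNA #1. PRKCI had a log2 difference of -0.49 (edgeR adjusted p = 0.00534) and DLG1 one of -0.49 (edgeR adjusted p = 0.00568), each with all 3 shRNA #3 libraries below all shRNA #1 libraries. LLGL2 had a log2 difference of -0.56 (edgeR adjusted p = 0.0382), also in 3 of 3 libraries, and was the least stable of the 3, with an adjusted p of 0.0043 to 0.146 over its edgeR and DESeq2 alternatives. Groups of 3 were too small for a check of single outlying libraries.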

How the results depend on the processing

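The count of called members was 7 in the pooled comparison, 7 with shRNA #1, 9 with shRNA #3 and 3 between the shRNAs. With a 2-fold change also required it was 3, 3, 4 and 0; beside the 0, 5 members had an unadjusted p under 0.05 in edgeR, of which 0 changed 2-fold, and DESeq2 gave 0. At an adjusted p under 0.01, 4 members passed with shRNA #1. With 1 library left out in turn, 6 to 8, 5 to 7, 7 to 9 and 2 to 3 members passed. Values that turned sign were small: PARD3 with shRNA #3 (0.067) was -0.014 to 0.15 with libraries left out, below 0 without shRNA #3 library A, and PRKCZ between the shRNAs (0.020) was -0.11 to 0.18, below 0 without shRNA #1 library A (-0.11) or shRNA #3 library C (-0.015). The cause was not tested. Fold changes and calls of CRB3, LLGL2 and PARD6B against control kept their direction and stayed called under every alternative run.

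Libraries share letters A, B and C across groups. Residuals of same-letter libraries correlated at 0.057 to 0.52 over 9 pairs, all above 0, and those of other letters at -0.50 to 0.21 over 18 pairs. The A libraries stood apart, at 0.455 to 0.523 with each other. With every B or C library of another group they were below 0 (-0.499 to -0.154). The A libraries thus shared a deviation across groups. Pairs of C libraries (0.276 to 0.385) lay above pairs of B with C (0.0638 to 0.213), whereas pairs of B libraries (0.0574 to 0.171) overlapped those. What the letters stand for beyond a replicate is not given in the labels. The main tests did not use the letters, and any shared effect of a letter stays in their spread. With the replicate block, 7, 8, 9 and 4 members were called in the 4 comparisons, and the counts over all genes went from 5269 to 5773, 6032 to 7798, 5536 to 7277 and 1857 to 3689. The added calls were PARD3 with shRNA #1 (0.18, adjusted p = 0.0384, edgeR) and SCRIB between the shRNAs (0.23, adjusted p = 0.0336, edgeR). Not every library correlated best with its own letter. Depth limits CRB3 in knockdown, at 0 to 4 counts per library, where the fitted fold change depends on the prior count.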

Other observations

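CDC42, the GTPase that activates the Par complex and that cells in general use, was listed at 0 to 7 counts in every library. Its span lies within AL031281.2, a gene model of 75850 bases on the same strand that was itself at 1 to 7 counts, so the CDC42 level cannot be read from this table, and whether reads shared by both models were dropped was not tested.

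MARK1, a Par-1 kinase, differed between the shRNAs more than any of the 10 members called there, at 23.9 ± 2.53 CPM (SD, n = 3) with shRNA #1, 12.9 ± 1.72 with shRNA #3 and 13.8 ± 1.06 in control (log2 difference -0.90, SE 0.134, adjusted p = 0.000716, edgeR). It was not alone. Of the 35 other polarity genes tested, 3 were higher and 3 lower with shRNA #3 than with shRNA #1. MPP7 differed by more than MARK1 (log2 difference 0.99, SE 0.267, adjusted p = 0.0291, edgeR).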
